A study of Triticum aestivum with 15 samples.

Results

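The third leaf of bread wheat after 7 days without iron was compared with the first leaf after 1 day without iron, in 3 libraries a group, which are 6 of the 15 libraries of the series. The libraries were chosen by their labels: the wild-type cultivar Fielder, a spring wheat (Triticum aestivum) used in many transformation studies, sampled as leaf 3 on day 7 or leaf 1 on day 1. All plants grew hydroponically, first for 12 days with 50 µM iron in the full nutrient mix and afterwards with 0 µM iron, so both groups were without iron when sampled. The library names give plants 105, 106 and 112 in both groups. These carry the replicate numbers 1, 2 and 3 of the titles and are called plant 1, 2 and 3 below. Titles list the first leaf of each replicate on day 0 and again on day 1. Whether a number is 1 plant throughout is therefore not settled. Short and longer deficiency were set against each other here, but leaf position and plant age changed with the time without iron and cannot be told apart from it.

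Iron is a cofactor of chlorophyll synthesis and of the iron-sulphur and haem proteins of the photosynthetic electron chain, and chloroplasts hold most of the iron of a leaf. Grasses take up iron by releasing phytosiderophores, which chelate ferric iron in the root medium. Iron moves poorly out of leaves that are already formed, so leaves that grow after its withdrawal are known to turn chlorotic first. The first leaf of a cereal seedling is formed early and matures while later leaves are still growing. Bread wheat is hexaploid, and its subgenomes A, B and D carry related copies of most genes. An identifier gives the chromosome of a gene but not its function, and 0 of the 269207 identifiers had an entry in the RefSeq table, so genes are described by chromosome and level, and only the pair of largest increases and the pair of largest decreases are given by identifier.

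Library totals ran from 20345313 to 23343568 counts on day 7, against 20145650 to 23860084 on day 1. Levels are given in CPM, counts scaled to a common library size over the 12 leaf libraries by TMM normalization. Genes that were at least 10-fold higher in the roots than in the leaves of day 11 took 0.379% to 0.594% of the counts on day 7, against 0.491% to 0.679% on day 1. Genes at least 10-fold higher in those leaves took 35.8% to 43.5% on day 7, against 45.8% to 51.1% on day 1, so both groups had the profile of leaves. The day 7 leaf of plant 3 stood apart. Its log2 CPM correlated across genes at 0.866 and 0.904 with those of plants 1 and 2 on day 7, which correlated at 0.941 with each other, and at 0.852 to 0.869 with the day 1 libraries, which correlated at 0.947 to 0.950 among themselves. Genes are not independent replicates, and these correlations describe the libraries. The main counts of calls are therefore also given without that library. Each sample was about 50 mg of tissue, and the titles name the leaf but not the part of it that was taken. In such mixed tissue fewer cells of a type and less RNA per cell cannot be told apart.

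Of 62841 genes tested, 12354 were higher on day 7 than on day 1 and 9981 were lower (edgeR quasi-likelihood F test, adjusted by Benjamini-Hochberg at 0.05), or 19.7% and 15.9% of the genes and 35.5% together. The median called gene rose 2.96-fold or fell 2.29-fold. Increases made up 55.3% of the calls, and 73.4% with library totals in place of TMM factors (18380 higher and 6660 lower), a change of scale that moves the log2 fold changes up by a median of 0.30. The TMM factors were 1.01 to 1.07 for the day 7 libraries, against 0.819 to 0.884 for those of day 1. The values of the groups did not overlap for 11445 of the genes called higher and 9741 of those called lower. Over all tested genes, 25.9% lay higher and 23.4% lower on day 7 without overlap. Without the day 7 leaf of plant 3, 12754 genes were called higher and 11759 lower, of which 11207 and 9512 were among the calls above. With plant 2 left out of every leaf group, 3103 genes were called higher and 2531 lower, and with plant 1 left out 5512 and 4305, with 2 libraries left a group.

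Large fitted changes were mostly increases. At 2-fold or more the calls held 8648 higher and 6371 lower genes, at 4-fold or more 5192 and 1817, and at 16-fold or more 3129 and 458. Increases thus made up 57.6%, 74.1% and 87.2% of the calls at these sizes. Among all calls, 1601 higher genes had 0 counts in every day 1 library, and 269 lower genes had 0 counts in every day 7 library. Their fitted fold changes depend on a small count added in the fit and are not measured. How many of them fall in each size class was not counted. Without the day 7 leaf of plant 3 the calls at 2-fold or more were 9597 higher and 8512 lower, and increases made up 53.0%, 67.1% and 81.5% at the 3 sizes. With library totals in place of TMM factors there were 12229 and 3983, and increases made up 75.4%, 84.1% and 90.1%. A test against a 2-fold change itself (glmTreat in edgeR, adjusted p under 0.05) called 3769 higher and 2012 lower genes. For 19395 genes, 30.9% of those tested, the 95% interval of the log2 fold change lay within 1 of 0, so that a 2-fold difference in either direction lies outside their intervals, and 2203 of these were called. Without the day 7 leaf of plant 3 such intervals numbered 16321 (24.9%).

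**Figure D1:**
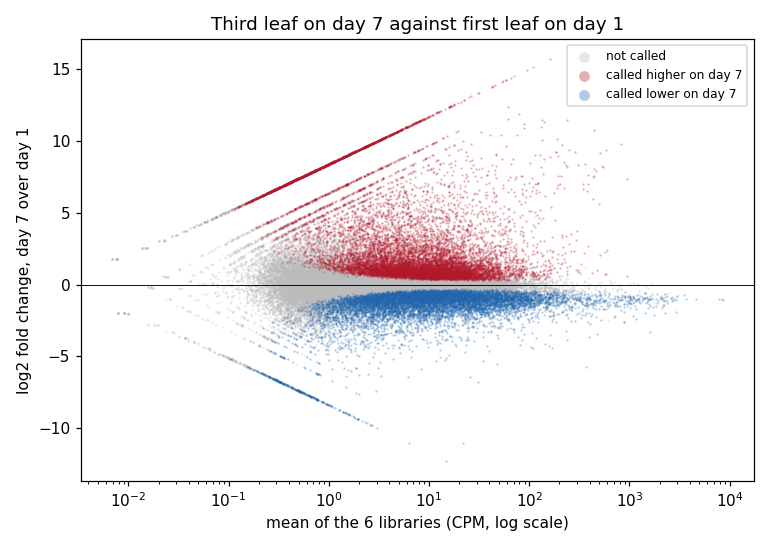
Log2 fold change of each tested gene (day 7 over day 1) against its mean in the 6 libraries (CPM, log scale), with genes called higher in red, called lower in blue and the others in grey. Increases reach much further from 0 than decreases, and the most abundant genes on the right lie mainly below 0. Straight rays on the upper and lower left are genes with few or 0 counts in one group.

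The direction depended on how abundant a gene was. Among 1383 genes averaging at least 100 CPM, 728 were lower and 206 higher, with a median log2 fold change of -0.70, while the median over all tested genes was 0.06. Among 18008 genes of 5 to 20 CPM, 3464 were lower and 4946 higher. Without normalization factors the abundant genes still held more decreases, with 526 lower and 273 higher and a median of -0.40, and without the day 7 leaf of plant 3 they had 857 lower and 204 higher. The median SE of a log2 fold change was 0.19 at 20 to 100 CPM and 1.03 under 1 CPM, where 10.4% of genes were called higher and 4.32% lower.

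The counts were spread over more genes on day 7 than on day 1. The 100 most abundant genes of each library took 15.2% ± 3.00 of its counts on day 7 and 23.1% ± 1.81 on day 1 (SD, n = 3 each; exact permutation test, two-sided p = 0.1). A number of 2619, 2379 and 1645 genes held 50% of the counts of plants 1, 2 and 3 on day 7, against 857, 806 and 1079 genes on day 1. Genes with at least 1 count numbered 71789 ± 1527 on day 7 and 66929 ± 1251 on day 1 (SD, n = 3 each; exact permutation test, two-sided p = 0.1). In each of these measures the groups did not overlap, and 0.1 is the smallest p that 3 libraries against 3 allow. The genes called higher took 34.3%, 32.0% and 18.9% of the counts of plants 1, 2 and 3 on day 7, against 7.15%, 6.83% and 7.72% on day 1. The genes called lower took 26.4%, 30.0% and 41.6% on day 7, against 59.8%, 60.6% and 56.3% on day 1. These shares follow from the calls and describe how much of the messenger RNA the called genes make up.

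The most abundant genes of the leaf before iron was withdrawn were taken from the day 0 libraries, which are in neither group. These are first leaves with the same plant numbers as those of day 1. A choice by high level in them therefore favours decreases, and its part was not tested. Of the 100 genes highest in CPM there, 88 were lower on day 7 than on day 1 and 0 were higher, with a median log2 fold change of -0.996. Without normalization factors 63 were lower and 0 higher, with a median of -0.69, and without the day 7 leaf of plant 3, 94 were lower and 0 higher. Over all tested genes 15.9% were lower and 19.7% higher. Of the 100 genes highest in the day 11 leaves, 50 were lower and 18 higher, with a median of -0.68. The share of increases is thus close to that over all genes. Without normalization factors these numbers were 26 and 21, and without the day 7 leaf of plant 3 they were 57 and 13.

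The most abundant genes among the decreases were 3 genes on chromosomes 4B, 4D and 4A that stood close together in level. The gene on 4B had 4397, 5036 and 7155 CPM in plants 1, 2 and 3 on day 7, against 12708, 11836 and 10326 CPM on day 1. The gene on 4D averaged 5569 CPM ± 1845 on day 7 and 11283 CPM ± 1256 on day 1, and that on 4A 5222 CPM ± 1824 and 10526 CPM ± 1189 (SD, n = 3 each). As named genes were chosen without overlap between groups, no day 7 value reached the lowest value of day 1. The highest day 7 value of each of the 3 genes was in plant 3. Their log2 fold changes were -1.07 (SE 0.23), -1.02 (SE 0.26) and -1.01 (SE 0.26), with edgeR adjusted p = 0.0047, 0.01 and 0.012. A gene on chromosome 5A, next in abundance, averaged 3072 CPM ± 1015 on day 7 and 6197 CPM ± 1333 on day 1 (SD, n = 3 each; log2 fold change -1.01, SE 0.26, edgeR adjusted p = 0.012). The calls of these 4 genes ended when only the 6 libraries were fitted (edgeR adjusted p = 0.057 to 0.082), and also without plant 1 (0.095 to 0.15) and without plant 2 (0.16 to 0.28). Scaled over all 15 libraries, the gene on 4B stood at 10405 CPM ± 1357 on day 0, 12437 CPM ± 1315 on day 1, 5927 CPM ± 1550 on day 7 and 2668 CPM ± 327 on day 11 (SD, n = 3 each), and at 0.06 CPM ± 0.06 in roots.

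The most abundant genes among the increases were low on day 1 and differed widely between plants on day 7. A gene on chromosome 7D had 2812, 2339 and 527 CPM in plants 1, 2 and 3 on day 7, against 13.4, 1.15 and 20.4 CPM on day 1 (log2 fold change 7.34, SE 2.19, edgeR adjusted p = 0.023). Its call ended without any single day 1 library (edgeR adjusted p = 0.062 to 0.078), and without plant 2 in all leaf groups (0.12). A further gene on 7D had 2515, 2191 and 266 CPM on day 7, against 2.73, 0 and 2.94 CPM on day 1 (log2 fold change 9.77, SE 2.25, edgeR adjusted p = 0.0069). Genes on 5B and 3D averaged 1166 CPM ± 865 and 1077 CPM ± 841 on day 7, against 1.74 CPM ± 1.67 and 3.77 CPM ± 3.79 on day 1 (SD, n = 3 each). Without plant 2 in all leaf groups the calls of this gene and of those on 5B and 3D ended too (edgeR adjusted p = 0.066 to 0.071). In all 4 the day 7 leaf of plant 3 was 5.33 to 10.3 times below that of plant 1. It was above every day 1 library, which the choice of named genes without overlap between groups requires. On day 11 the leaf means of the 4 genes were 252 to 546 CPM and their root means 0.41 to 1.63 CPM, scaled over all 15 libraries. On that scale the day 0 first leaf of plant 1 had 117, 37.6, 35.7 and 20.3 CPM of them. Those of plants 2 and 3 had 0 to 0.24 CPM, so the first leaf was not without these genes in every plant.

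The largest increases in fold were genes with 0 counts in every day 1 library. TraesCS3B02G529700 on chromosome 3B had 641, 308 and 19.2 CPM in plants 1, 2 and 3 on day 7, against 0 counts in all 3 plants on day 1. The mean of 323 CPM ± 311 (SD, n = 3) was at least 6056-fold higher than the floor of day 1, which is 3 counts over the group or 0.0533 CPM, and the lowest day 7 library was 361-fold above that floor (edgeR adjusted p = 0.0012). TraesCS5B02G565600 on chromosome 5B had 353, 290.0 and 15.4 CPM on day 7, against 0 counts in all 3 plants on day 1, at least 4122-fold higher for the mean of 220 CPM ± 180 (SD, n = 3; edgeR adjusted p = 0.0057). The 8 largest increases all had 0 counts on day 1, and in each of them plant 1 was highest and plant 3 lowest on day 7, with plant 3 at 1.77 to 19.2 CPM. Without plant 2 in all leaf groups, 7 of the 8 lost their call (edgeR adjusted p = 0.052 to 0.087), TraesCS3B02G529700 being the exception, and the gene on 2D lost it also without plant 1 (0.068). The day 11 leaf means of the 8 genes were 16.4 to 92.1 CPM and their root means 0 to 0.05 CPM, scaled over all 15 libraries. On that scale the day 0 first leaf of plant 1 had 19.7 CPM of TraesCS5B02G565600 and 0 to 2.16 CPM of the others. The day 0 leaves of plants 2 and 3 had at most 0.40 CPM of any of the 8.

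The 8 largest decreases in fold had day 1 means of 12.2 to 728 CPM. TraesCS1A02G334700 on chromosome 1A had 0 counts in all 3 plants on day 7, against 38.2, 23.3 and 27.4 CPM on day 1. It was at least 678-fold lower for the day 1 mean of 29.6 CPM ± 7.7 (SD, n = 3), against a day 7 floor of 0.0437 CPM, and 534-fold for the lowest day 1 library (edgeR adjusted p = 9.4e-05). It was also at 0 in the day 11 leaves and in roots. TraesCS6B02G356800 on chromosome 6B had 0 counts in all 3 plants on day 7, against 10.7, 3.6 and 24.0 CPM on day 1, at least 292-fold lower for the mean and 82.3-fold for the lowest library (edgeR adjusted p = 0.011). Without plant 1 its call ended (edgeR adjusted p = 0.09). It had 0 counts in the day 11 leaves and 1.5 CPM ± 0.69 in roots (SD, n = 3). A gene on chromosome 5A was the most abundant of the 8 largest decreases, with 9.3, 6.2 and 26.1 CPM on day 7, against 400, 492 and 1292 CPM on day 1 (log2 fold change -5.71, SE 0.91, edgeR adjusted p = 0.0011). A gene on chromosome 3D had 0.57, 0 and 1.09 CPM on day 7, against 34.3, 44.1 and 106 CPM on day 1 (log2 fold change -6.78, SE 0.87, edgeR adjusted p = 0.00038). Scaled over all 15 libraries this gene averaged 21.1 CPM ± 0.49 in the day 11 leaves and 124 CPM ± 39.8 in roots (SD, n = 3 each). The 8 largest decreases thus include genes listed at 0 on day 11 and a gene whose highest level was in roots.

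**Figure D2:**
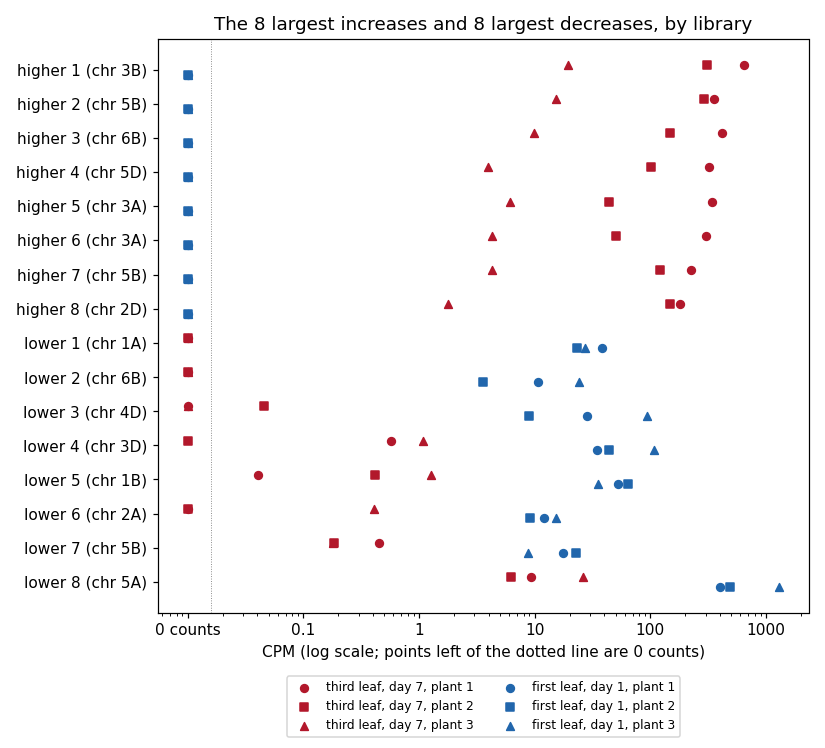
CPM on a log scale in each of the 6 libraries for the 8 largest increases and 8 largest decreases among genes averaging at least 5 CPM with no overlap between groups, labelled by chromosome, with day 7 in red above day 1 in blue and plants 1, 2 and 3 as circles, squares and triangles. In every increase the day 7 triangle of plant 3 lies far left of plants 1 and 2 yet right of the day 1 points at 0 counts. Points left of the dotted line are 0 counts.

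The genes with the smallest p differed little between plants, which a choice by p favours. A gene on chromosome 7D had 33.3, 38.8 and 34.4 CPM in plants 1, 2 and 3 on day 7, against 5.58, 5.95 and 5.65 CPM on day 1 (log2 fold change 2.63, SE 0.13, edgeR adjusted p = 1.3e-05). A gene on 3B had 34.0, 34.3 and 48.3 CPM on day 7, against 0, 0 and 0.0475 CPM on day 1, where a single count was seen. Its day 11 means were 516 CPM ± 66.6 in leaves and 150 CPM ± 32.4 in roots (SD, n = 3 each, scaled over all 15 libraries). A gene on 6B had 77.4, 94.9 and 58.2 CPM on day 7, against 3.32, 3.22 and 3.13 CPM on day 1 (log2 fold change 4.57, SE 0.26, edgeR adjusted p = 4.6e-05). In the 7D and 3B genes the day 7 leaf of plant 3 was not the lowest of its group, and in the 6B gene it was 1.33 times below plant 1.

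Among the decreases a gene on chromosome 7A had the smallest p. It had 6.94, 7.71 and 14.3 CPM on day 7, against 208, 214 and 203 CPM on day 1 (log2 fold change -4.43, SE 0.26, edgeR adjusted p = 4.7e-05). Scaled over all 15 libraries it averaged 413 CPM ± 33.3 on day 0, 223 CPM ± 6.13 on day 1, 10.3 CPM ± 4.32 on day 7 and 1.91 CPM ± 0.033 on day 11 (SD, n = 3 each), with 0 in roots. Genes on 5A and 4A followed, at 2.94 CPM ± 0.57 and 2.35 CPM ± 0.39 on day 7, against 18.3 CPM ± 1.91 and 13.9 CPM ± 1.4 on day 1 (SD, n = 3 each). The highest day 7 value of all 3 genes was in plant 3.

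More genes appeared than disappeared. Of the genes called higher, 1601 (13.0%) had 0 counts in every day 1 library, and of those called lower, 269 (2.7%) had 0 counts in every day 7 library. The floors were 0.0437 CPM for day 7 and 0.0533 CPM for day 1, so a low level reads 0 slightly more easily on day 1, and its part in these numbers was not tested. Genes at 0 on day 1 passed the filter on counts only through other leaf libraries. Some may have been tested only through the day 7 libraries in which they are high. The same holds for genes at 0 on day 7 and the day 1 libraries, and the part of the filter was not tested. Without the day 7 leaf of plant 3 there were 2007 genes that appeared and 583 that disappeared, and with 2 libraries a group reads 0 more easily. The median of the genes that appeared was 1.67 CPM on day 7, at least 31.3-fold above the floor of day 1, and 341 of them averaged 5 CPM or more. Only 6 of the genes that disappeared averaged 5 CPM or more on day 1, and their median was 0.96 CPM. Of the 1601 genes, 1222 were counted in all 3 day 7 libraries and 279 were low-confidence models, against 11384 low-confidence models among the 62841 genes tested. In libraries outside the comparison, 519 of the 1601 had 0 counts in all day 0 leaves, 17 in all day 11 leaves and 563 in all roots. Of the 269 genes that disappeared, 29 had 0 counts in all day 0 leaves and 95 in all day 11 leaves. How many of all tested genes were at 0 in these libraries was not counted. Plant 1 of day 0 stands apart from its group, and without it 1132 of the 1601 were at 0 on day 0.

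The place of each day 7 leaf between the groups was measured over genes called at 2-fold or more in the fit that left that leaf out. The scale ran over log2(CPM + 0.5), with 0% at the day 1 mean and 100% at the mean of the other day 7 leaves. Plant 3 had covered a median of 56.5% of the way over 9229 genes that were higher in plants 1 and 2 (interquartile range 32.7% to 79.0%), and 61.2% over 8457 genes that were lower (44.4% to 78.7%). It lay on the day 7 side of the day 1 mean for 89.9% and 97.7% of these genes. The genes were chosen with the same day 1 libraries that set 0%, so these shares have no matching value for a leaf that did not change. Plant 1 had a median of 113% over 6474 genes higher and 117% over 4827 genes lower in the other leaves. Plant 2 had 112% over 6930 and 107% over 4981 genes. For plants 1 and 2 the 100% mark is a mean that includes plant 3. By this measure plant 3 lay between the day 1 mean and the mean of the other day 7 leaves in the median gene, and the cause was not tested.

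**Figure D3:**
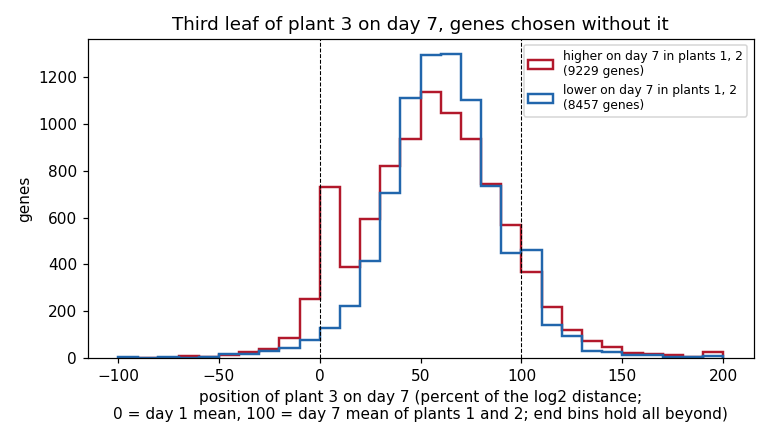
Number of genes by the place of the day 7 leaf of plant 3 between the day 1 mean (0%) and the mean of plants 1 and 2 on day 7 (100%), on the log2(CPM + 0.5) scale, for 9229 genes higher (red) and 8457 genes lower (blue) in the fit without that leaf. Both curves peak between the dashed lines, near the medians of 56.5% and 61.2%, and the red curve has a further peak just above 0%.

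With plant 3 included, the spread between plants was wider on day 7. Over 27040 genes averaging at least 5 CPM, the median SD of log2(CPM + 0.5) was 0.25 on day 7 and 0.17 on day 1 (n = 3 each). For the 13293 of them that were not called it was 0.20 and 0.17. Over all 27040, plants 1 and 2 differed by a median of 0.21 on day 7, plants 1 and 3 by 0.36 and plants 2 and 3 by 0.31. Both larger differences involve plant 3. Such differences were not taken for day 1, so whether plants 1 and 2 alone were wider apart on day 7 is not shown.

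The chromosomes carried the changes in nearly equal shares. With more higher than lower genes on each of the 21 chromosomes, the share of higher genes ran from 18.2% on 4B, where 17.5% were lower, to 22.3% higher on 3D, with TMM factors. When the day 7 leaf of plant 3 was left out, 17 chromosomes had more higher genes and 4 had more lower genes. The median log2 fold change of a chromosome lay between 0 and 0.12. By subgenome, 4027 genes of A, 4005 of B and 4145 of D were higher (19.6%, 19.0% and 20.3% of those tested) and 3310, 3360 and 3202 were lower (16.1%, 15.9% and 15.7%). The high-confidence gene models held 11230 higher and 8562 lower genes (21.8% and 16.6% of 51457). The low-confidence models held 1124 higher and 1419 lower genes (9.87% and 12.5% of 11384), with a median log2 fold change of -0.01 beside 0.08 for the high-confidence models. Without normalization factors the low-confidence models held more increases (1819 higher and 918 lower), so their direction turned with the scale. Their share of all counts was 4.54% ± 0.15 on day 7 and 4.08% ± 0.25 on day 1 (SD, n = 3 each; exact permutation test, two-sided p = 0.1).

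Some neighbouring genes moved together, but most of the called genes had no adjacent gene called the same way. The identifiers number the high-confidence genes along a chromosome in steps of 100, and 28578 pairs of neighbours were both tested. The genes called at 2-fold or more made up 13.8% higher and 10.1% lower of all tested genes. Next to a gene that was at least 2-fold higher, 24.98% of neighbours were at least 2-fold higher too, against 14.5% of all such neighbours. Next to a gene that was at least 2-fold lower, 16.8% were at least 2-fold lower, against 10.8%. Runs of 4 or more neighbours that all moved one way by at least 2-fold numbered 39 with 175 genes for increases and 13 with 59 genes for decreases. Of the high-confidence genes at 2-fold or more, 5725 of 7632 higher and 4364 of 5296 lower genes had no adjacent gene called the same way. An adjacent gene that was not tested counts here as not called. With 28578 tested pairs for 51457 tested high-confidence genes, many adjacent genes were not tested, which raises these numbers. The excess next to a called gene was not tested. Without the day 7 leaf of plant 3 there were 42 and 20 runs. Neighbours can be near-identical copies that share reads, so their values are not independent, and single genes within a run are uncertain.

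The longest run of increases held 8 neighbours on chromosome 5D. Their summed level was 2222, 1666 and 145 CPM in plants 1, 2 and 3 on day 7, against 11.0, 9.98 and 14.2 CPM on day 1. Most of the day 1 level belonged to the last gene of the run, which had 47.8, 47.6 and 16.8 CPM on day 7, against 9.85, 9.98 and 9.97 CPM on day 1 (log2 fold change 1.91, SE 0.37, edgeR adjusted p = 0.0027). With the plant as a block the longest run of increases held 6 genes. A run of 6 genes on 1A summed to 315, 204 and 157 CPM on day 7, against 21.0, 20.3 and 59.6 CPM on day 1, with log2 fold changes of 1.52 to 4.77. The longest run of decreases held 7 neighbours on chromosome 6A, which summed to 141, 177 and 318 CPM on day 7, against 1992, 2005 and 1576 CPM on day 1. Its pair of most abundant genes averaged 104 and 57.4 CPM on day 7, against 696 and 734 CPM on day 1 (log2 fold changes -2.75 and -3.68, SE 0.38 and 0.33, edgeR adjusted p = 0.00054 and 0.0001). A run of 6 genes on 5B summed to 29.5, 13.5 and 29.5 CPM on day 7, against 92.1, 155 and 205 CPM on day 1. The sums of the groups did not overlap in any of these 4 runs.

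**Figure D4:**
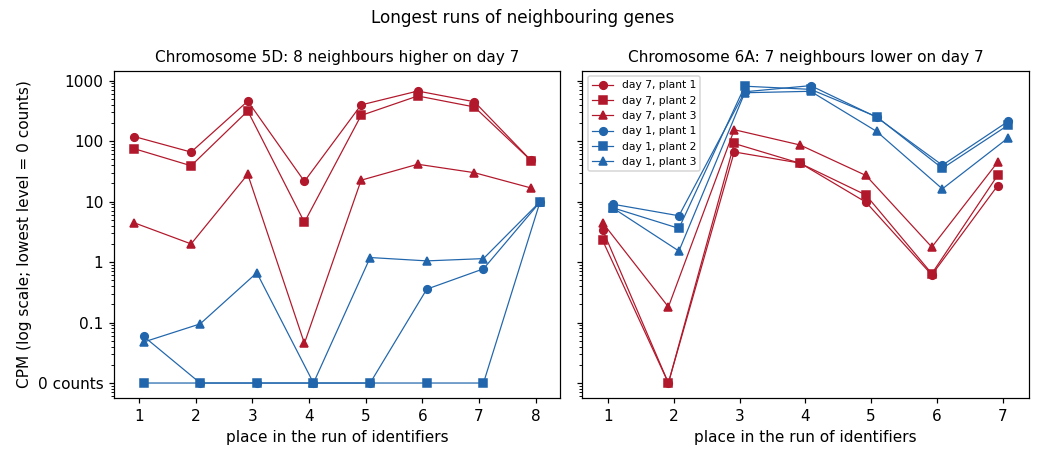
CPM on a log scale of each gene in the longest run of increases (left, 8 neighbours on chromosome 5D) and of decreases (right, 7 neighbours on 6A), with a line for each library, day 7 in red and day 1 in blue. On 5D the day 7 leaf of plant 3 runs between the other day 7 leaves and day 1, and on 6A every red point lies below every blue point of the same gene.

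The leaves of day 11 against the first leaf of day 0 gave a second view that shares no library with day 7 against day 1. It came, however, from the same fit over all leaf libraries, with the same filter, scaling and estimates of variation. The calls of both comparisons are therefore not independent of each other. It also has the same plant numbers and changes leaf position and age. The titles name the third and later leaves for day 11, so the leaf position of day 7 is among them. Day 0 is the first leaf, as is day 1. Both comparisons thus set later leaves against the first leaf. How much of the shared calls follows from this shared change of leaf position was not tested. Of all 62841 genes, day 11 was higher for 21.6% and lower for 22.7% (edgeR adjusted p under 0.05). Of the 12354 genes higher on day 7 than on day 1, 6018 (48.7%) were higher on day 11 than on day 0, 371 (3.0%) were lower and 5965 were not called. Of the 9981 genes lower on day 7, 7019 (70.3%) were lower on day 11 and 355 (3.56%) were higher. Seen from the day 11 lists, 44.4% of the genes higher on day 11 were higher on day 7, and 49.1% of those lower on day 11 were lower on day 7. The median log2 fold change of day 11 over day 0 was 0.95 for the genes higher on day 7, -1.25 for those lower and 0.13 for the genes not called. Across genes the log2 fold changes of both comparisons correlated at r = 0.512 and rho = 0.577 over 62841 genes. These genes are not independent, and the comparisons share the fit, the change of leaf position, plant numbers and annotation. Without the day 7 leaf of plant 3 the shares were 49.1% and 66.9%, and without the day 0 leaf of plant 1, which stands apart from its group, they were 55.4% and 68.0%. The difference between the share of increases and the share of decreases was not tested.

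**Figure D5:**
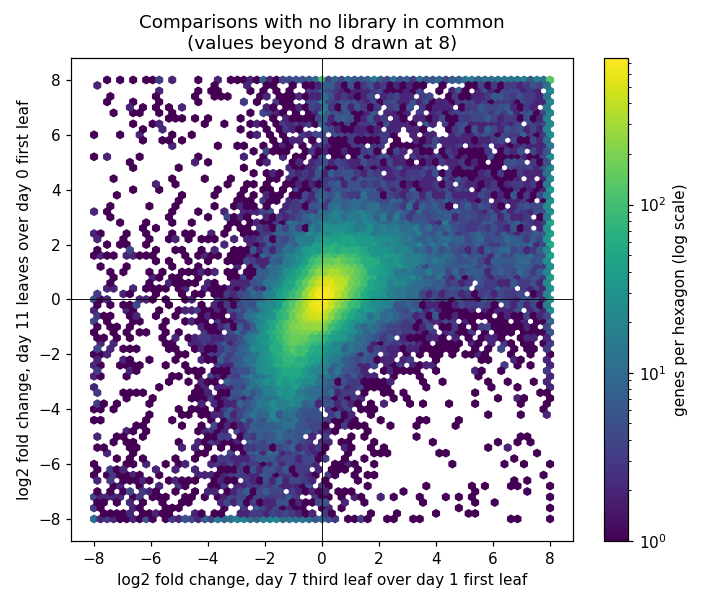
Log2 fold change of the day 11 leaves over the day 0 first leaf against that of day 7 over day 1 for 62841 genes, coloured by the number of genes per hexagon on a log scale, with values beyond 8 drawn at 8. Most genes lie along a rising band (r = 0.512), which bends flat on the right, where large day 7 increases go with smaller day 11 increases.

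Roots of day 11 against leaves of day 11 gave the tissue in which the called genes are higher, again without a library of the comparison. Of all 67922 genes tested there, 35.7% were higher in roots and 32.7% lower, and of the 58712 also tested for day 7 against day 1, over which the shares below are taken, 27.3% were higher and 37.8% lower. Of the 11905 genes higher on day 7 that were tested there, 6208 (52.1%) were lower in roots than in leaves and 2299 (19.3%) higher. Of the 9254 genes lower on day 7, 5484 (59.3%) were lower in roots and 1935 (20.9%) higher. The shares lower in roots were 51.0% and 58.3% without the day 7 leaf of plant 3, against 37.1% of all shared genes. Genes with much higher levels in leaves than in roots held changes in both directions. Of 7802 such genes at 10-fold or more, 2640 (33.8%) were lower and 2143 (27.5%) higher on day 7 than on day 1. Over all tested genes 15.9% were lower and 19.7% higher. Without normalization factors 2045 (26.2%) were lower and 2452 (31.4%) higher, against 10.6% lower and 29.2% higher over all tested genes. Which direction held more genes thus changed with the scale, while the share of decreases lay above that over all genes on both scales. The 7802 genes held 3017 lower and 2158 higher genes without the day 7 leaf of plant 3. Of 9108 genes at least 10-fold higher in roots, 1672 had enough counts in the leaf libraries to be tested. Of these, 341 (20.4%) were lower on day 7 and 126 (7.54%) higher, with a median log2 fold change of -0.67. More were lower also without normalization factors (289 and 168) and without the day 7 leaf of plant 3 (394 of 1670 lower and 157 higher). Set against 15.9% lower and 19.7% higher over all tested genes, the share of increases lay further from the general share than that of decreases. These genes were chosen as lower in the day 11 leaves than in roots. Some may have been tested only through first-leaf libraries in which they are high. Such a choice favours decreases, and its part was not tested.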

How the data were processed

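Gene expression was measured by sequencing of polyA RNA from 15 libraries, of which 12 are leaves. Per the labels' protocols, each sample was about 50 mg of tissue, the mRNA kit keeps the strand, and reads were paired and 150 nt long. The deposited values are raw counts, 1 row a gene, not normalized. Per the submitters' processing notes HISAT2 2.2.1, featureCounts 2.0.3, StringTie 2.2.3, Trim Galore 0.6.7, MultiQC 1.11 and FastQC 0.74 were used. The strand setting, genome build and handling of multi-mapping reads were not given in the sources used here. So counts of near-identical copies, A, B and D copies included, and of overlapping or antisense genes cannot be relied on gene by gene. Of the identifiers, 107836 are high-confidence models, 161371 are low-confidence models and 159897 had 0 counts throughout.

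The test was the quasi-likelihood F test of edgeR 4.0.16 (R 4.3.3) with TMM factors and filterByExpr. Its model had the group alone as a term and took in all 12 leaf libraries, whose shared coefficient of biological variation was 0.34, and day 7 was contrasted with day 1. Roots were set against leaves in a fit of their own over the 6 day 11 libraries. Calls are at 0.05 after Benjamini-Hochberg adjustment. Each SE is the absolute log2 fold change over the root of F, and intervals used the t quantile of the fit. Floors of 3 counts per group allow for counting error alone. Shares were tested by exact permutation in scipy 1.17.1. In simulated counts of the 12 leaf libraries, 60519 genes were tested, with 100 genes set to 4-fold and 100 to 2-fold on day 7. The calls found 42 and 4 of these, and 3 were false. In the data 35.5% of genes were called, and the Benjamini-Hochberg cut is looser when more genes change. These rates therefore do not describe the reported calls.

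Named genes were called, averaged at least 5 CPM and did not overlap between groups: the 8 largest increases and decreases, the 4 most abundant at 2-fold or more and the 3 smallest p in each direction, and the 2 longest runs of neighbours in each direction. The comparison, lists and rules were chosen with earlier results of these data known. Functional lists could not be applied, as 0 of 269207 identifiers matched the RefSeq table of 155467 genes.

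Each replicate number of the titles stands for 1 plant number in the library names (105, 106 and 112), the same in each group. These numbers were taken to pair the libraries, although the first leaf of each is listed on both day 0 and day 1. Whether a number is 1 plant throughout could not be worked out, so blocks and left-out plants go by the number. Deviations from the group means of same-plant libraries correlated across genes at -0.06 to -0.02 over 3 pairs. Whether each group's libraries came from separate extractions or batches is not given, so p-values measure the spread between these samples. No pair of libraries within a group agreed within sampling noise. Alternatives were the plant as a block, DESeq2 1.42.0, other scalings and filters, the 6 libraries alone, high-confidence models alone, and each plant or library left out. The scaling by library totals, the place of each day 7 leaf between the groups, and the counts of genes at 0, of runs, of narrow intervals, of fold classes, of lists and of shared calls under left-out libraries or the block were added after seeing the data.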

Additional observations from a re-analysis of the deposited data

How the results depend on the processing

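With each of the 3 plants left out of all leaf groups in turn, the genes higher on day 7 numbered 3103 to 11375 and the lower genes 2531 to 11039. At 2-fold or more, over these fits and those without 1 library, 2821 to 9597 were higher and 2312 to 8528 lower. The lowest numbers came without plant 2 (3103 higher and 2531 lower), and without plant 1 there were 5512 higher and 4305 lower genes, in fits with 2 libraries a group. With 1 of the 6 libraries left out at a time, 8985 to 12754 genes were higher and 7174 to 11759 lower. With library totals in place of TMM factors 3983 genes were at least 2-fold lower, against 6371. A cut on the fitted fold change gave 15019 genes past 2-fold, against 5781 in the test against 2-fold. With the plant as a block (replicate block) 11141 genes were higher and 9418 lower, and the block changed no call among the 30 named genes outside the runs. The counts stayed within 1.5 times of those reported with DESeq2 (13838 higher and 10927 lower), RLE factors, other filters, the 6 libraries alone and high-confidence models alone. Over 17 alternatives no gene called in the reported fit was called in the opposite direction. Without plant 2, 17 of the 30 named genes lost their call, and without plant 1, 7 did. TraesCS5B02G565600 lost it without plant 2 (edgeR adjusted p = 0.066, range over alternatives 3.4e-10 to 0.066) and TraesCS6B02G356800 without plant 1 (0.09, range 0.00054 to 0.09). TraesCS3B02G529700 and TraesCS1A02G334700 kept an adjusted p under 0.05 in all 17. No alternative changed a direction among the 30.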
